A study of Mus musculus with 6 samples.

Results

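This account covers 10 genes whose proteins bend, coat or cut membranes in muscle, out of 27179 genes listed in the counts: *Dnm2*, *Bin1*, *Mtm1*, *Cav1*, *Cav2*, *Cav3*, *Cavin1*, *Ehd1*, *Ehd4* and *Ehbp1l1*. Of these, 9 were chosen by what their proteins do. *Ehbp1l1* was selected on its lower counts in miDrp1KO muscle, so its difference is given as a description with no test. The study asked what acute loss of Drp1, the GTPase that divides mitochondria, does to skeletal muscle. RNA was sequenced from quadriceps muscle of 3 miDrp1KO mice (replicates A, E and F) and 3 control mice (replicates B, C and D), all on normal chow. The miDrp1KO mice carry a floxed *Dnm1l* gene, which encodes Drp1, and a tamoxifen-inducible Cre recombinase driven by the human skeletal actin promoter. Deletion therefore takes place in muscle fibres, while vessel, fat, nerve and connective tissue cells of the same muscle keep the gene. Controls, labelled "Control f/f", carry floxed alleles, given in the study's methods as flox/+ or flox/flox. Per the study's methods, mice of both groups received tamoxifen at 3 months of age on 4 days. The study's results place the sequenced muscle at 3 weeks after deletion. Each library has its own sample label, and the groups share no replicate label.

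T-tubules are inward folds of the fibre surface membrane that carry the action potential to the sarcoplasmic reticulum. Caveolae are small flask-shaped pits of the same membrane, built from caveolins, which sit in the membrane, and cavins, which coat them, and forming T-tubules resemble chains of caveolae. BIN1 (amphiphysin 2) bends membrane into tubules, dynamin 2 constricts and cuts membrane necks, and myotubularin removes phosphate from phosphoinositide lipids, and mutations in each of these genes cause centronuclear myopathy. EHD proteins are ATPases that form rings on curved membrane and act in recycling from endosomes and at the necks of caveolae. EHBP1L1 binds the small GTPase Rab8 and BIN1 on recycling membranes.

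Promoter sequences are shown for 4 of the 10 genes: *Dnm2*, whose groups did not overlap, the chromosomal neighbours *Cav2* and *Cav1*, whose fold changes had opposite signs, and *Ehbp1l1*, with the largest difference of the 10. Each line is the 250 bases before an annotated start in RefSeq on GRCm38.p6, read 5′ to 3′ along the gene's own strand. *Dnm2* lies at chr9:21424658-21424907 on the plus strand, *Cav2* at chr6:17280935-17281184 and *Cav1* at chr6:17306085-17306334, both on the plus strand, and *Ehbp1l1* at chr19:5726318-5726567 on the minus strand. Capitals mark E-boxes, the letters CANNTG, which basic helix-loop-helix factors such as the myogenic regulators recognise. The start used for *Ehbp1l1* lies inside the span annotated for the gene, so that window is within the gene.
Dnm2: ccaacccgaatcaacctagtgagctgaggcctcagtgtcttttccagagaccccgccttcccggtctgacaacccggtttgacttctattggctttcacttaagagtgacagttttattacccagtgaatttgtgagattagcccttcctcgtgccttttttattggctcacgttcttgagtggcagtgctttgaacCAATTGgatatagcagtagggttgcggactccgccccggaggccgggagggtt
Cav2: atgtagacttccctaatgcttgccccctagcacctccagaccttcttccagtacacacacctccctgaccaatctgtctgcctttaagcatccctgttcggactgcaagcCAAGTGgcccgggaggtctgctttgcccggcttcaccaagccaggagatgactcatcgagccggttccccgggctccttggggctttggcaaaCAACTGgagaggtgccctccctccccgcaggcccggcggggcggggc
Cav1: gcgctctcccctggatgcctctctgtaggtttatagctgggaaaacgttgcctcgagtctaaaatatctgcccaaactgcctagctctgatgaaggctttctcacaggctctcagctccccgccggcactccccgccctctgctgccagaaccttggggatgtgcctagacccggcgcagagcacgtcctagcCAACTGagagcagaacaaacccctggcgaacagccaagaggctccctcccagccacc
Ehbp1l1: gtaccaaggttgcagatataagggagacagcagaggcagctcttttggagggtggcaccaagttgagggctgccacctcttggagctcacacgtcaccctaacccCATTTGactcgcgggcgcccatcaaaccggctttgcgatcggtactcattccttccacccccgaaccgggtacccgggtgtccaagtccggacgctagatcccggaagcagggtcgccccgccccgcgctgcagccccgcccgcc

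A promoter was on hand for 8 of the 10 genes, all but *Bin1* and *Ehd1*. On either strand, an E-box occurred in 6 of these 8 windows, beside 66.2% of 32851 windows of the same length over all genes. A GC box (GGGCGG) was in 6 of 8, beside 32.7% of all windows. The TATA box letters TATAAA were in 1 of 8, that of *Cav1*, beside 12.4%. This match is on the opposite strand, in the part of the window farthest from the start. *Cav2* had 2 E-boxes, 140 and 47 bases before its start, and *Cav1* had 1, at 57 bases. The E-box of *Dnm2* began 53 bases and that of *Ehbp1l1* 145 bases before the start. The window of *Dnm2* had a GC content of 51.2%, below the 59.6% of *Cav1*, the 62% of *Cav2* and the 63.6% of *Ehbp1l1*. The letters AAAGGTCA, the element named for Nur77 binding (NBRE), were in 0 of 8 windows and in 1.34% of all. The cAMP response element TGACGTCA was in 0 of 8 and in 1.55% of all. No base belonged to 2 of these motifs. These are letter matches, with no binding measured.

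Library totals ran from 13989588 to 62042255 counts in controls and from 20028624 to 28829756 in miDrp1KO. Ribosomal RNA took 3.36% to 15.6% of control counts and 1.48% to 24.4% of miDrp1KO counts, lowest in miDrp1KO replicate E, whose TMM scaling factor of 1.42 stood above the 0.840 to 1.04 of the other libraries. *Dnm1l* itself was at 156, 114 and 140 CPM in controls (counts scaled to library size by the TMM method) and at 70.6, 81.3 and 66.2 CPM in miDrp1KO, so every library matched its label for the deleted gene. Its mean was 53.2% of control, with a log2 fold change of -0.91 ± 0.18 (SE, n = 3 per group; edgeR quasi-likelihood adjusted p = 0.362, and 0.00382 with DESeq2 to 0.877 over the alternatives tried). Summed skeletal fibre markers, a list of 10 genes led by contractile and metabolic fibre genes, came to 236600 to 293600 CPM in controls and 107800 to 219200 CPM in miDrp1KO, with 8 of 10 lower. Summed slow fibre markers were 392, 37.5 and 67.4 CPM in controls and 67.3, 664 and 623 CPM in miDrp1KO, so 1 control and 2 miDrp1KO libraries were high. In bulk muscle, fewer cells of a type and less RNA per cell cannot be told apart.

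Across the 9 genes chosen by function, none passed an adjusted p of 0.05 by edgeR's quasi-likelihood test, beside 2 of 16483 genes tested (0.0121%). At an unadjusted p under 0.05, 1 of the 9 (*Bin1*) was lower, beside 6.22% of all genes tested, and 0 were higher, beside 4.68%. Without control B, control D, miDrp1KO E or miDrp1KO F, 0 of the 9 had an unadjusted p under 0.05. Beside this, 1553 of 17655, 951 of 17750, 1203 of 16753 and 1337 of 17161 of all genes tested had, in that order. Without miDrp1KO A 2 of the 9 had, beside 3115 of 17845 of all genes tested. By DESeq2, 0 of the 6 that received an adjusted p passed 0.05, beside 94 of 4018 genes, and 1 of the 9 had an unadjusted p under 0.05, beside 1709 of 16483. In *Dnm2* and *Bin1* every miDrp1KO library lay below every control library, 2 of 9 genes beside 10.3% of all genes, and in 0 of 9 every miDrp1KO library lay above, beside 7.67%. The median log2 fold change of the 9 was -0.13, beside 0.02 over all genes, with 6 negative and 3 positive. Their fold changes were small, from -0.57 (*Bin1*) to 0.26 (*Cav2*) on the log2 scale. Counts were ample for all 10 genes, with the lowest single value 234 counts for *Ehd1*.

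**Figure D1:**
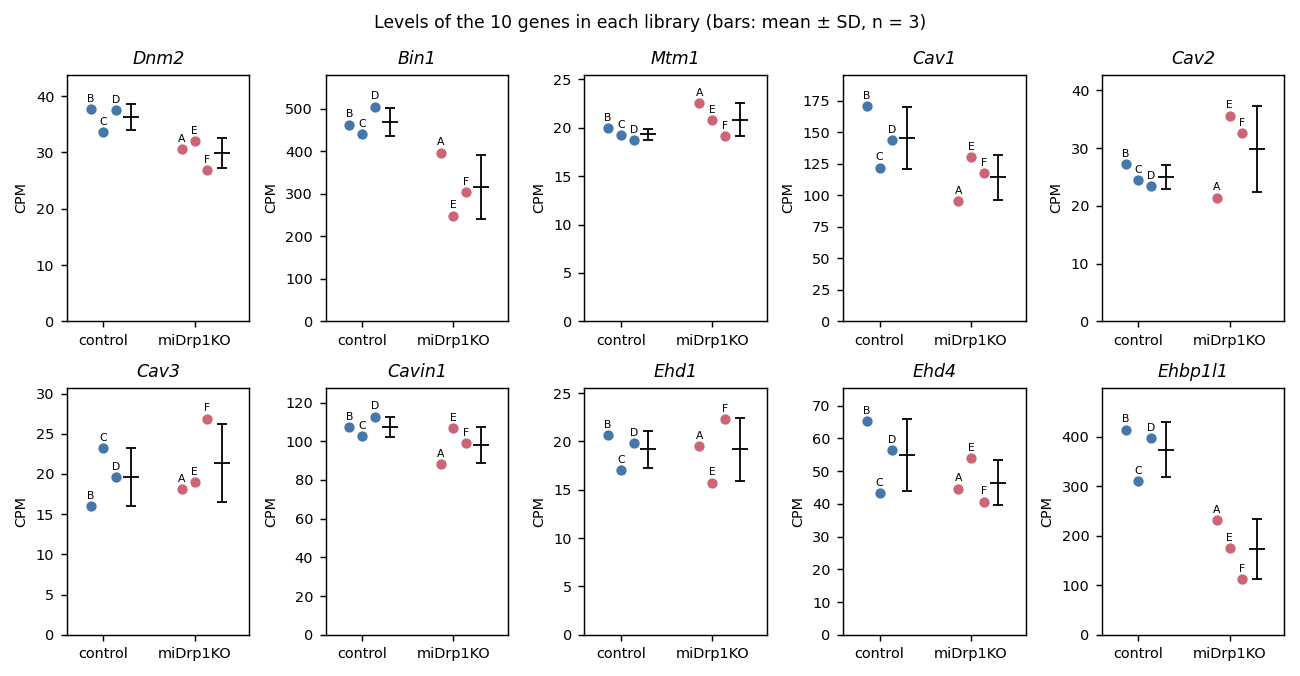
Level of each of the 10 genes in CPM (y axes from 0) in every control (B, C, D; blue) and miDrp1KO (A, E, F; red) library, with bars for mean ± SD (n = 3). The groups are apart for *Dnm2*, *Bin1* and *Ehbp1l1* and overlap for the other 7; *Ehbp1l1* was selected for being lower.

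*Bin1* had the lowest fold change of the 9 genes chosen by function. It lies at chr18:32376618-32435740 (GRCm38.p6, Entrez 30948). It was at 463, 440 and 505 CPM in controls and at 397, 249 and 304 CPM in miDrp1KO. All 3 miDrp1KO libraries were below all controls, replicate A closest to them and replicate E farthest. The means were 469 ± 32.8 and 317 ± 74.9 CPM (SD, n = 3), 67.5% of control. The log2 fold change was -0.57 ± 0.22 (SE), with an edgeR adjusted p of 0.407 over all genes and an exact two-sided permutation p of 0.1, the smallest that 3 against 3 mice allow. The SD among miDrp1KO mice exceeded that among controls. A long noncoding gene that overlaps it, A830052D11Rik, was at only 2.65 to 5.76 CPM.

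*Dnm2* differed less than *Bin1* but with tighter libraries. It spans chr9:21424908-21507759 (Entrez 13430) and was at 37.6, 33.7 and 37.6 CPM in controls and 30.6, 32.0 and 26.9 CPM in miDrp1KO. The groups did not overlap, although control C and miDrp1KO E lay close together. The means were 36.3 ± 2.27 and 29.8 ± 2.66 CPM (SD, n = 3), 82.2% of control. The log2 fold change was -0.28 ± 0.15 (SE; edgeR adjusted p = 0.523, exact permutation p = 0.1). *Tmed1*, a protein-coding gene that overlaps *Dnm2*, was at 8.0 to 12.9 CPM, and the strand setting of the counting was not given in the sources used here.

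*Mtm1*, the third of the centronuclear myopathy genes, had a positive fold change. It lies at chrX:71210767-71315413 (Entrez 17772). Its levels were 19.9, 19.2 and 18.7 CPM in controls and 22.6, 20.8 and 19.1 CPM in miDrp1KO. Replicates A and E lay above all controls and F within them. On the log2 scale the fold change was 0.11 ± 0.15 (SE), with an edgeR adjusted p of 0.821 and an exact permutation p of 0.3.

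Because *Mtm1* varied least of the centronuclear myopathy genes, counts of *Dnm2* and *Bin1* were set against it within each library, a comparison that needs no scaling between libraries. These ratios, and those of the caveolae that follow, were chosen after the values had been seen and carry no test. The *Dnm2* to *Mtm1* count ratio was 1.89, 1.75 and 2.01 in controls and 1.36, 1.54 and 1.41 in miDrp1KO. The *Bin1* to *Mtm1* count ratio was 23.2, 22.9 and 27.0 in controls and 17.6, 12 and 15.9 in miDrp1KO. Both sets of ratios were lower in every miDrp1KO library than in any control. The mean log2 ratios differed by -0.39 for *Dnm2* and -0.70 for *Bin1*.

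**Figure D2:**
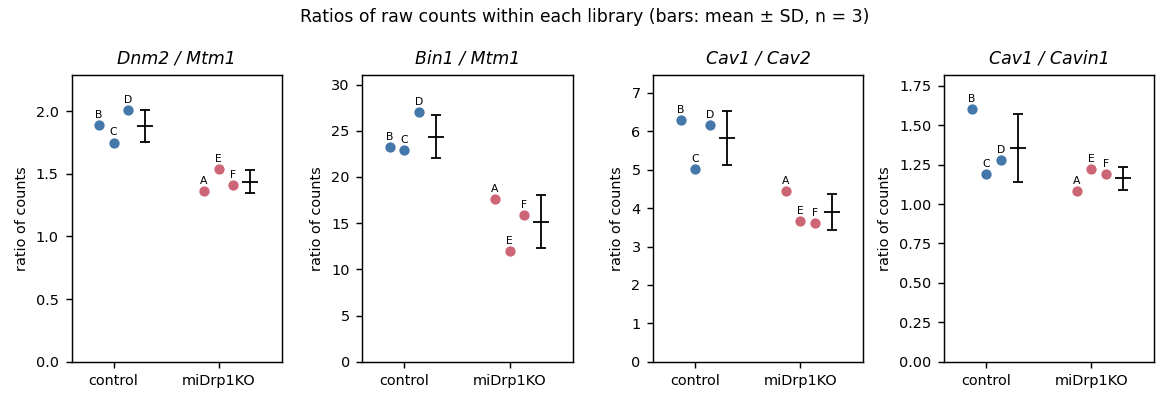
Ratio of raw counts of gene pairs within each library (y axes from 0; controls blue, miDrp1KO red; bars are mean ± SD, n = 3). *Dnm2* to *Mtm1*, *Bin1* to *Mtm1* and *Cav1* to *Cav2* are lower in all 3 miDrp1KO libraries, whereas *Cav1* to *Cavin1* overlaps.

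The caveola genes among the 10 had fold changes of both signs, and the groups overlapped for each. Differences between these genes were not tested. *Cav1* and *Cav2*, which encode the caveolins found in most cell types including endothelium and fat, had fold changes of opposite sign, and *Cav3*, the caveolin of muscle fibres, overlapped between groups. *Cav1* (chr6:17306335-17341328, Entrez 12389) was at 171, 122 and 144 CPM in controls and 95.3, 131 and 118 CPM in miDrp1KO. Replicate A was lowest and control B highest, and E exceeded control C. The means were 146 ± 24.6 and 114 ± 17.8 CPM (SD, n = 3), 78.5% of control. This gave a log2 fold change of -0.35 ± 0.20 (SE; edgeR adjusted p = 0.546, exact permutation p = 0.2), which became -0.20 without control B and -0.52 with a slow fibre score as covariate.

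*Cav2* (chr6:17281185-17289130, Entrez 12390) ends 17205 bases before *Cav1* on the same strand, and its protein reaches the membrane in complexes with caveolin 1. It was at 27.2, 24.4 and 23.4 CPM in controls and 21.4, 35.6 and 32.6 CPM in miDrp1KO. Replicates E and F lay above all controls, and A below all of them. The fitted log2 fold change was 0.26 ± 0.20 (SE; edgeR adjusted p = 0.656, exact permutation p = 0.4). It was 0.47 without replicate A, 0.12 without E and 0.04 with the slow fibre score as covariate. Against each other, the *Cav1* to *Cav2* count ratio was 6.29, 5.01 and 6.16 in controls and 4.44, 3.66 and 3.61 in miDrp1KO. No miDrp1KO ratio reached the lowest control ratio, and the mean log2 ratio differed by -0.57.

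*Cav3* (chr6:112459505-112472872, Entrez 12391) was at 16.0, 23.2 and 19.6 CPM in controls and 18.1, 19.0 and 26.9 CPM in miDrp1KO. Only F lay above the control range. Its log2 fold change of 0.13 ± 0.20 (SE; edgeR adjusted p = 0.854, exact permutation p = 0.7) turned to -0.05 without miDrp1KO replicate F. *Cavin1* (chr11:100956736-100970617, Entrez 19285), the coat protein that caveolae require in all tissues, was at 107, 103 and 113 CPM in controls and 88.2, 107 and 99.0 CPM in miDrp1KO. E lay within the control range and A and F below it. The log2 fold change was -0.13 ± 0.16 (SE; edgeR adjusted p = 0.797, exact permutation p = 0.2). The *Cav1* to *Cavin1* count ratio, at 1.6, 1.19 and 1.28 in controls and 1.08, 1.22 and 1.19 in miDrp1KO, overlapped between the groups.

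*Cav1*, *Cav2* and *Cavin1* are also expressed by cells that keep *Dnm1l*. The summed level of 14 endothelial markers was 438, 250 and 338 CPM in controls and 267, 386 and 276 CPM in miDrp1KO. Of the 14, 10 were lower. At an unadjusted p under 0.05, 0 were lower (6.22% of all genes) and 0 higher (4.68% of all genes). Within controls, B was highest and C lowest both for these markers and for *Cav1*, and within miDrp1KO E was highest and A lowest for both. All 7 adipocyte markers were lower, 3 of them at an unadjusted p under 0.05 (6.22% of all genes). Their sums were 428 to 691 CPM in controls and 284 to 408 CPM in miDrp1KO. All 6 fibroblast markers had positive fold changes, with sums of 1218 to 1714 CPM and 1347 to 2291 CPM. Mural markers summed to 466 to 570 CPM in controls and 334 to 498 CPM in miDrp1KO. Macrophage markers summed to 123 to 215 CPM and 156 to 192 CPM, and Schwann cell markers to 34.8 to 46.0 CPM and 38.0 to 67.4 CPM, controls first. At an unadjusted p under 0.05, 2 of 7 macrophage markers were higher (4.68% of all genes) and 0 lower (6.22% of all genes). In 2 of these 7 every miDrp1KO library lay above every control (7.67% of all genes), as in 1 of 6 Schwann cell markers. The part of these cells in the caveolin levels was not tested.

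The EHD genes showed no group difference beyond their spread. *Ehd1* (chr19:6276896-6300096, Entrez 13660), which acts at the recycling endosome, was at 20.6, 17.1 and 19.8 CPM in controls and 19.5, 15.7 and 22.3 CPM in miDrp1KO. The miDrp1KO range enclosed the control range and the log2 fold change was -0.00 ± 0.17 (SE; edgeR adjusted p = 0.996, exact permutation p = 0.9). *Ehd4* (chr2:120089487-120154575, Entrez 98878), which acts in endosomal transport, was at 65.2, 43.3 and 56.5 CPM in controls and 44.6, 54.0 and 40.7 CPM in miDrp1KO. Replicate F was lowest and control B highest, with the others interleaved. Its log2 fold change was -0.24 ± 0.19 (SE; edgeR adjusted p = 0.667, exact permutation p = 0.3).

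*Ehbp1l1* (chr19:5707369-5726576, Entrez 114601) was added because it was lower, so the following values describe that choice and support nothing. It was at 414, 311 and 397 CPM in controls and 232, 175 and 112 CPM in miDrp1KO. Every miDrp1KO library was below every control, F lowest. The means were 374 ± 55.3 and 173 ± 59.8 CPM (SD, n = 3), 46.3% of control, and the log2 fold change was -1.11 ± 0.26 (SE). *Kcnk7*, which overlaps it, was at 0.568 to 1.09 CPM. *Ehd1*, on the same chromosome, lies 550320 bases away, and its groups overlapped. The paralog *Ehbp1* was at 40.2, 42.6 and 44.9 CPM in controls and 45.9, 35.3 and 29.6 CPM in miDrp1KO, with a log2 fold change of -0.20 (edgeR adjusted p = 0.711), which was -0.37 without miDrp1KO A and -0.05 without F.

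Of 13 paralogs of the 10 genes, 12 were tested (*Bin2* was not matched by symbol). Of these 12, 6 had negative and 6 positive fold changes, and 0 passed an adjusted p of 0.05. At an unadjusted p under 0.05, 1 of the 12, *Cavin4*, was lower, beside 6.22% of all genes, and 0 were higher, beside 4.68%. *Cavin4* encodes the muscle cavin, which lines T-tubules and caveolae of fibres. It was at 141, 125 and 125 CPM in controls and 108, 89.3 and 93.6 CPM in miDrp1KO, 74.6% of control. Its groups did not overlap, with a log2 fold change of -0.42 ± 0.17 (SE; edgeR adjusted p = 0.415, exact permutation p = 0.1). Beside it, *Cavin2* and *Cavin3*, made in many cell types, had log2 fold changes of -0.03 and 0.20, and *Cavin1* one of -0.13. The *Cavin4* to *Cavin1* count ratio was 1.31, 1.21 and 1.11 in controls and 1.22, 0.837 and 0.945 in miDrp1KO, so replicate A lay among the controls. *Dnm1* and *Dnm3*, the dynamins best known from neurons, had log2 fold changes of 0.43 (edgeR adjusted p = 0.472) and 0.07, and the membrane-bending *Amph* and *Bin3* 0.45 and 0.01. *Amph* had as few as 9 counts in a library, and its fold change ran from 0.23 without control B to 0.69 without miDrp1KO E. The myotubularin relatives *Mtmr1* and *Mtmr2* were both at -0.10, and *Ehd2*, the EHD protein of caveolar necks, and *Ehd3* were at -0.07 and 0.19. With 1 library left out, *Mtmr1* ran from -0.16 (without miDrp1KO A) to -0.04 (without E) and *Ehd3* from 0.11 (without E) to 0.34 (without F). Differences between paralogs were not tested.

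**Figure D3:**
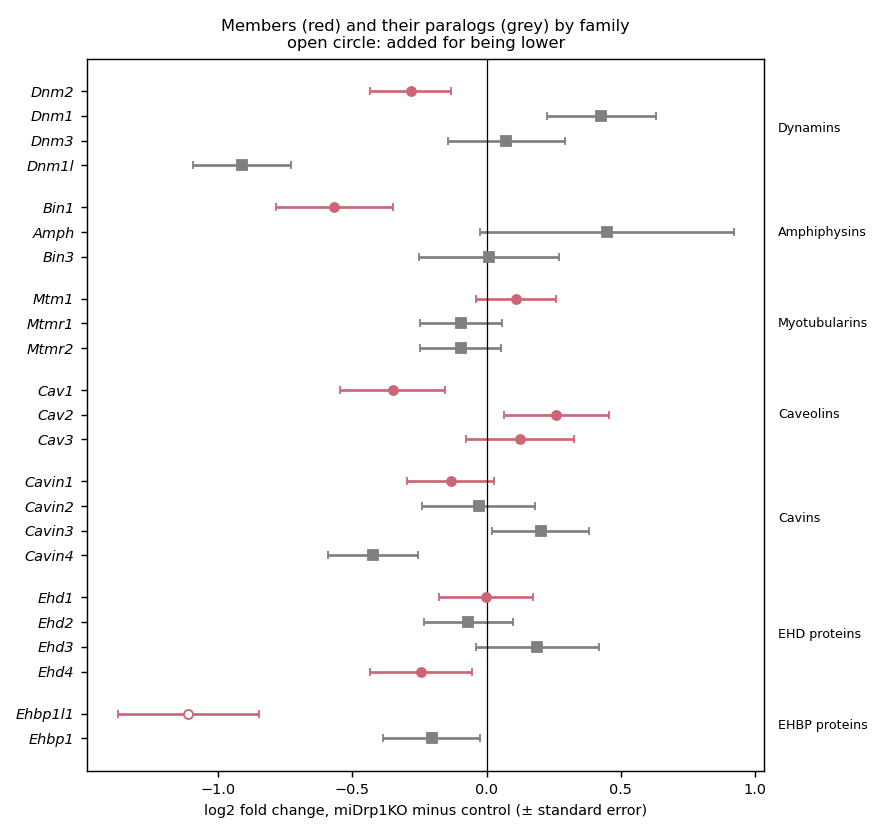
Fitted log2 fold change (miDrp1KO minus control; x axis) ± standard error for the 10 genes (red circles), their paralogs and *Dnm1l* (grey squares), grouped by family. *Bin1*, *Cavin4* and *Dnm2* lie below 0, as do *Dnm1l*, *Ehd4*, *Ehbp1*, *Cavin1*, *Mtmr1*, *Mtmr2*, *Ehd2* and *Cavin2*, with *Ehd1* near 0. *Cav1* and *Cav2* lie on opposite sides of 0, and *Ehbp1l1* (open circle), added for being lower, is at -1.11.

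Levels were next compared between genes per kilobase of exon, as means over the 6 libraries. *Bin1* was the most abundant of the 10 at 95.5 CPM per kilobase, followed by *Ehbp1l1* at 39.3, *Cav1* at 37.8, *Cavin1* at 28.6 and *Cav3* at 17.7. *Ehd4* at 12.7, *Cav2* at 8.23, *Dnm2* at 6.20, *Ehd1* at 5.18 and *Mtm1* at 1.44 CPM per kilobase came after. The library ranges of neighbours in this order overlapped except between *Bin1* (60.4 to 123) and *Ehbp1l1* (16.1 to 59.5), between *Cavin1* (24.6 to 31.4) and *Cav3* (13.8 to 23.2), and between *Ehd1* (4.25 to 6.01) and *Mtm1* (1.34 to 1.62). *Ehbp1l1* owed its place to the controls, at 44.6 to 59.5 CPM per kilobase, against 16.1 to 33.3 in miDrp1KO. Among paralogs, *Dnm2* at 6.20 stood above *Dnm1* at 2.16 and *Dnm3* at 0.422 CPM per kilobase, and *Bin1* far above *Amph* at 0.182. *Cavin4*, at 55.2 CPM per kilobase, stood above *Cavin1*. Exon length is the union of all annotated exons, 13935 bases for *Mtm1*, so a gene that uses few of its exons is understated.

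**Figure D4:**
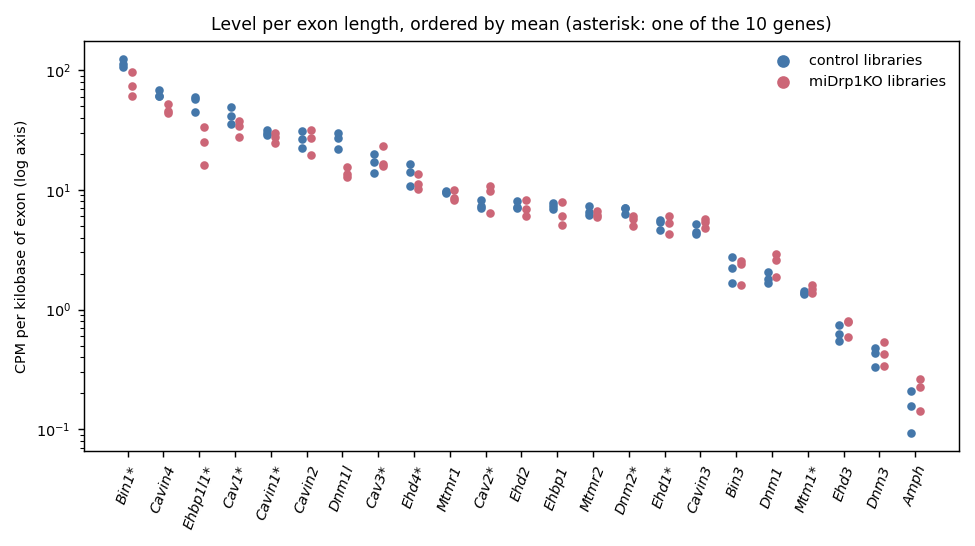
CPM per kilobase of exon (log y axis) in each control (blue) and miDrp1KO (red) library for the 10 genes (asterisks), their paralogs and *Dnm1l*, ordered by mean. *Bin1* is highest, at 60.4 to 123 CPM per kilobase, and *Mtm1*, at 1.34 to 1.62, is the lowest of the 10.

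Genes of connected processes were counted from lists written by hand; the paralogs *Cavin2*, *Cavin3*, *Cavin4*, *Ehd2*, *Ehd3*, *Ehbp1*, *Mtmr2* and *Amph* are in them too. Of 20 other genes of T-tubule and triad formation, 15 had negative and 5 positive fold changes, 9 were lower at an unadjusted p under 0.05 (6.22% of all genes), 0 were higher (4.68% of all genes), and in 10 every miDrp1KO library lay below every control (10.3% of all genes). Their median log2 fold change was -0.22 and 0 passed an adjusted p of 0.05 by edgeR. Among them, *Speg* encodes a triad kinase that binds myotubularin. *Speg* was at 253, 199 and 206 CPM in controls and 149, 120 and 45.6 CPM in miDrp1KO, a log2 fold change of -1.06 ± 0.39 (SE; edgeR adjusted p = 0.416), which was -0.69 without F. Every miDrp1KO library was below every control, F lowest, as for *Ehbp1l1*. The summed fibre markers were also lowest in F and lower in every miDrp1KO library than in any control, and their part in these values was not tested.

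Of 11 caveola partners, 8 had negative and 3 positive fold changes, with a median of -0.07. In 3 of the 11 every miDrp1KO library lay below every control (10.3% of all genes), and in 0 above (7.67% of all genes). At an unadjusted p under 0.05, 3 were lower (6.22% of all genes) and 0 higher (4.68% of all genes). Besides *Cavin4* these were *Filip1*, which encodes a filamin-binding protein, and *Pacsin3*, the muscle syndapin of caveolae. Any link of *Filip1* to caveolae was not tested. *Filip1* was at 149, 147 and 154 CPM in controls and 136, 85.2 and 54.3 CPM in miDrp1KO, a log2 fold change of -0.71 ± 0.29 (SE; edgeR adjusted p = 0.422), which was -0.42 without F and -1.08 without A. *Pacsin3* was at 138, 118 and 125 CPM in controls and 109, 76.6 and 92.4 CPM in miDrp1KO, a log2 fold change of -0.46 ± 0.18 (SE; edgeR adjusted p = 0.416). The groups did not overlap for either gene, with replicate A closest to the controls, as for *Bin1*. Of 37 genes of clathrin-mediated endocytosis, 36 were tested, with 22 negative and 14 positive fold changes, and a median of -0.09. At an unadjusted p under 0.05, 4 of them were lower and 1 was higher, beside the same 6.22% and 4.68% of all genes. In 7 of the 36 every miDrp1KO library lay below every control (10.3% of all genes), and in 1 above (7.67% of all genes). The alpha subunits of the AP2 adaptor were lowest by the naming rule: *Ap2a1* was at 25.6, 26.1 and 27.8 CPM in controls and 19.3, 17.8 and 14.1 CPM in miDrp1KO, a log2 fold change of -0.64 ± 0.16 (SE; edgeR adjusted p = 0.362). *Ap2a2* was at 82.1, 80.0 and 80.1 CPM in controls and 64.9, 48.5 and 49.6 CPM in miDrp1KO, a log2 fold change of -0.57 ± 0.17 (SE; edgeR adjusted p = 0.379). *Sh3gl1*, an endophilin, was the gene counted as higher, with a log2 fold change of 0.50 (edgeR adjusted p = 0.436).

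Of 26 genes of endocytic recycling, the pathway of the EHD proteins, 14 had negative and 12 positive fold changes, with a median of -0.06. At an unadjusted p under 0.05, 0 were lower (6.22% of all genes) and 0 higher (4.68% of all genes). In 2 of the 26 every miDrp1KO library lay below every control (10.3% of all genes), and in 0 above (7.67% of all genes). The 4 mitochondrial dynamins (*Dnm1l*, *Opa1*, *Mfn1* and *Mfn2*) all had negative fold changes, with a median of -0.61. This count and median include *Dnm1l*, the deleted gene, which is lower by design. The groups overlapped for *Mfn1*, with a log2 fold change of -0.31 (edgeR adjusted p = 0.62). They also overlapped for *Opa1*, at -0.25 (edgeR adjusted p = 0.66). *Mfn2*, which fuses outer mitochondrial membranes, was at 327, 176 and 235 CPM in controls and 121, 138 and 130 CPM in miDrp1KO. Its groups did not overlap, with a log2 fold change of -0.92 ± 0.23 (SE; edgeR adjusted p = 0.362, and 0.0217 with DESeq2 to 0.877 over the alternatives tried). None of the genes in these 5 lists passed an adjusted p of 0.05 by edgeR.

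**Figure D5:**
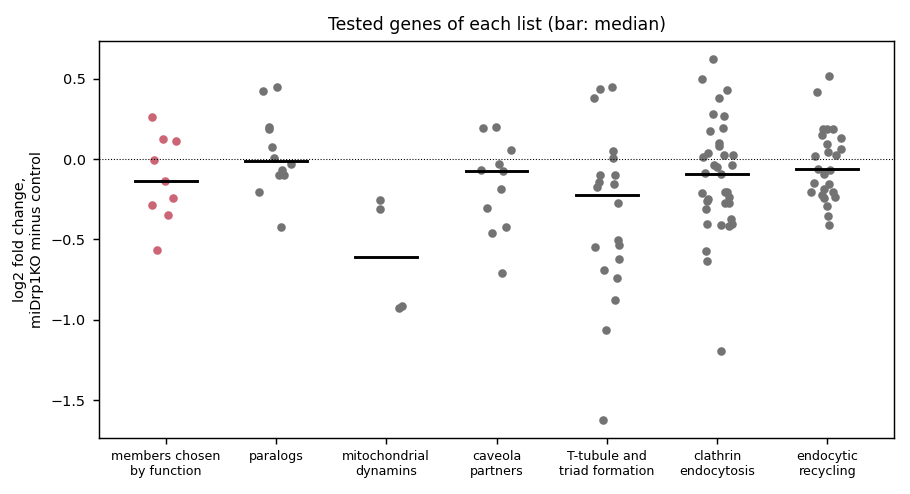
Fitted log2 fold changes (miDrp1KO minus control; y axis) of each tested gene of 7 lists, with bars at the medians. The 9 genes chosen by function (red) run from -0.57 to 0.26 with a median of -0.13, and the T-tubule and triad list has a median of -0.22.

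The genes whose log2 CPM followed *Dnm2* most closely over the 6 libraries, among 7206 genes of at least 10 CPM on average, were *Snrnp35* (Pearson r = 0.991), *Msantd4* (0.991) and *Wdr13* (0.988). For *Cav1* they were *Inppl1* (0.98), *Cluh* (0.976) and *Ncbp2* (0.976), and for *Cav3* *Hexa* (0.995), *Plpp7* (0.982) and *Ppp1r11* (0.974). These correlations describe 6 libraries that also share the group difference and differ in depth, and the highest of 7206 values is high by selection.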

How the data were processed

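RNA was sequenced from quadriceps muscle of 6 mice. For each library the authors deposited a table of raw gene counts, whole numbers with no normalization. Per the study's methods, ribosomal RNA was depleted, libraries were combined into 2 pools, and Rsubread aligned the reads to GRCm38 and counted them after a FastQC check; the submitters' processing notes also name DESeq2 1.30.0. The pool of each library and the treatment of reads on overlapping genes were not given in the sources used here, so overlapping genes are uncertain. Libraries were grouped by the genotype label.

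Counts were tested here in R 4.3.3 with edgeR 4.0.16 (quasi-likelihood test with robust fit, TMM scaling, low counts removed by filterByExpr). Adjusted p-values (Benjamini-Hochberg, threshold 0.05) cover 16483 of 27179 genes (common biological coefficient of variation 0.252). CPM used TMM library sizes. Single genes were also compared by a two-sided exact permutation test of mean log2 CPM (prior count 2). Libraries differed in depth, with totals of 13989588 to 62042255 counts. The p-values weigh each difference against the spread between these samples, which may be partly technical. Lengths and coordinates came from GENCODE M21 exons and RefSeq on GRCm38.p6. The code was tested on simulated data. Alternatives included DESeq2 1.42.0 and limma 3.58.1, other scaling and filters, and leaving out each library.

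The genes and lists were chosen with earlier results of these data known. Genes named were the 10 described, *Dnm1l*, their paralogs and, from each list, up to 2 with the largest positive and 2 with the largest negative fold change at an unadjusted p under 0.05 and at least 1 CPM, plus the 3 closest in pattern to *Dnm2*, *Cav1* and *Cav3*; 1 gene that this rule names is not reported here.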

Additional observations from a re-analysis of the deposited data

How the results depend on the processing

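Over 16 alternatives, the fold changes of *Dnm2*, *Bin1*, *Cav1*, *Cavin1* and *Ehd4* stayed negative and those of *Mtm1* and *Cav2* positive. *Dnm2* ran from -0.35 to -0.19 (adjusted p 0.411 to 0.899), *Bin1* from -0.74 without miDrp1KO replicate A to -0.42 without E (adjusted p 0.114 to 0.877). *Cav1* ran from -0.52 with the slow fibre covariate to -0.20 without control B, and *Cav2* from 0.04 with that covariate to 0.47 without miDrp1KO A. *Mtm1* ran from 0.07 without miDrp1KO A to 0.20 with upper quartile scaling, *Cavin1* from -0.20 without E to -0.04 without A, and *Ehd4* from -0.41 without control C to -0.09 without control B. *Ehbp1l1*, whose sign its selection fixed, ran from -1.36 to -0.86. The median of the 9 genes stayed negative in every alternative, from -0.20 to -0.04. None of the 9 passed an adjusted p of 0.05 in any alternative, and 1 (*Bin1*) did with the unadjusted p in its place. At an unadjusted p under 0.05 the count was 0 without control B, control D, miDrp1KO E or miDrp1KO F. Beside this stood 1553 of 17655, 951 of 17750, 1203 of 16753 and 1337 of 17161 of all genes tested, in that order. The count was 2 without miDrp1KO A (3115 of 17845 of all genes tested) and with the slow fibre covariate (1642 of 16483). It was 1 otherwise, beside a share from 1375 of 16483 with the ribosomal RNA covariate to 2068 of 16483 with limma voom. Of all genes, 2 passed in the edgeR test, 94 with DESeq2, 1 with limma voom, 8 with no filter on low counts, 1796 without adjustment, 1 with a covariate for the ribosomal RNA share, 4 with a covariate for the slow fibre score and 1 to 7 with a library left out (7 without miDrp1KO replicate A, 1 without E and 1 without F). The slow fibre covariate and a correction for exon length and GC content were added after seeing the data. Signs changed for 7 of 31 named genes, all with fold changes near 0. *Ehd1*, at -0.00, became 0.0054 with DESeq2, 0.0073 with RLE scaling, 0.0056 with no filter, 0.0865 with upper quartile scaling, 0.0392 when each library needed at least 10 counts, 0.0361 after removing ribosomal RNA genes and *Lars2*, and 0.0281 with the length and GC correction. *Cavin2* became 0.0627 with upper quartile scaling, 0.0151 with at least 10 counts, 0.0306 with the ribosomal RNA covariate and 0.014 with those genes removed. *Ehd2* became 0.0204 with upper quartile scaling. With the length and GC correction *Cav3* became -0.0135 and *Bin3* -0.0058, and with the slow fibre covariate *Bin3* became -0.12. With 1 library left out, *Ehd1* ran from -0.10 to 0.12, *Cavin2* from -0.19 to 0.16, *Ehd2* from -0.20 to 0.0513, *Cav3* from -0.0532 to 0.25, *Bin3* from -0.15 to 0.21, *Dnm3* from -0.0772 to 0.24 and *Mtmr2* from -0.17 to 0.0013. The cause of these changes was not tested. Upper quartile scaling moved the median of all genes from 0.02 to 0.11. No paired analysis was possible because the groups share no replicate label.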
